A study of Homo sapiens with 12 samples.

Results

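The collagen chain genes are the rows of the deposited count table whose gene symbol is COL, a number, A and a number, with no pseudogene or antisense suffix. The rule found 50 of the 60234 rows, which hold 44 gene symbols, since COL11A2 appears under 7 identifiers, 6 of them at 0 counts in every library. Of the 44 genes, 28 passed the filter on low counts and were tested, among 22668 genes tested in all. Each collagen is a triple helix of chains whose genes are scattered over the genome, and a chain must usually find the right partner chains before it is exported. The classes differ in what the helices build: fibrils, the sheet of the basement membrane, beaded filaments, anchoring fibrils, or proteins that span the cell membrane. Carcinoma cells make collagens of their own besides those laid down by stromal cells, and collagen-rich matrix is a surface on which such cells migrate.

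The samples were MDA-MB-231 cells, an established human line of triple-negative breast cancer, which lacks the estrogen, progesterone and HER2 receptors. The fast population had been captured by its migration path, and the parental population was the line it was captured from. Total RNA of cultured cells was sequenced in 12 libraries, 6 of each population, with 3 of each population in each of 2 batches. The labels name no drug, transgene or added allele for either population, and they do not say how many captures the fast cells came from.

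The series describes 2 batches of 3 technical replicates for 2 biological replicates, and the labels do not tie libraries to the biological replicates. Sums of the 3 libraries of a population and batch were therefore run as an alternative. The 6 libraries of a population may thus stand for fewer independent samples, and a p-value here speaks for the spread of these libraries alone, which may be technical. Depth was 53267145 to 75944907 counts a library, and a gene at 1 CPM (counts scaled to a common library total) had about 53.3 counts in the shallowest one. Levels are CPM after TMM normalisation, a log2 fold change is fast over parental and carries its standard error (SE), and a gene is called where the adjusted p of edgeR's quasi-likelihood test is under 0.05. The mesenchymal marker VIM of this line stood at 6912 CPM in fast cells against 5050 CPM in parental ones, and the epithelial cadherin CDH1 had 8 counts in fast and 3 in parental cells over 6 libraries each. CD44, high in this line, was lower, at 705 CPM in fast cells against 895 CPM in parental ones (edgeR adjusted p = 3.77e-15), and the epithelial EPCAM stood at 11.2 CPM in both and was not called (0.897). Fibroblasts are the other main makers of collagen. Of 12 fibroblast markers, 3 passed the filter, LUM, DCN, PDPN and DPT were at 0 in every library, and no other untested marker had more than 28 counts in all 12 libraries. The summed level of the 12 markers was 16.2 to 18.8 CPM in fast and 8.75 to 11.2 CPM in parental libraries. Most of it came from ACTA2 (4.85 against 2.58 CPM) and FBLN1 (11.7 against 6.53 CPM), both called higher. PDGFRB, the other tested marker, stood at 0.977 against 0.869 CPM and was not called (edgeR adjusted p = 0.329). Of the untested ones, FAP (2 against 26 counts), PDGFRA (6 against 18), THY1 (8 against 17) and POSTN (1 against 2) had fewer counts in fast cells. MFAP5 (14 against 10) had more. The part of this summed level in the collagen levels was not tested.

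The collagen IV genes lie in head-to-head pairs, so that each pair shares the short stretch between its starts. That stretch is shown for COL4A1 and COL4A2, which fell little in fast cells, and for COL4A5 and COL4A6, which fell most. The starts lie 127 bases apart for COL4A1 and COL4A2 on chromosome 13 and 380 bases apart for COL4A6 and COL4A5 on chromosome X. For COL4A3 and COL4A4 on chromosome 2 the distance is 419 bases. RefSeq promoter windows (build GRCh38.p14) were matched for 32 of the 44 genes, and for all 6 collagen IV genes. The line COL4A2 gives the 126 bases between the starts of COL4A1 and COL4A2, chr13:110307158-110307283, plus strand. The lines COL4A5 and COL4A6 give the 250 bases before each start, chrX:108439588-108439837, plus strand, and chrX:108439459-108439708, minus strand. COL4A6 has another RefSeq start, not shown. Capitals mark the GC box, GGGCGG, and the CCAAT box, on either strand. TATAAA was searched too and was in none of the 3.
COL4A2: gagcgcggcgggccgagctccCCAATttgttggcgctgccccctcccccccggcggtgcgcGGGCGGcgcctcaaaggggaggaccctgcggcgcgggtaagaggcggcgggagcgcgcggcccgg
COL4A5: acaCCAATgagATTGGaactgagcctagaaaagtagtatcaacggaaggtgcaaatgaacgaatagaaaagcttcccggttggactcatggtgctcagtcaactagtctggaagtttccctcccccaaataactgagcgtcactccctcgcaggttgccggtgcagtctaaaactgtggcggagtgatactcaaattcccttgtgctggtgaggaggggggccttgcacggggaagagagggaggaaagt
COL4A6: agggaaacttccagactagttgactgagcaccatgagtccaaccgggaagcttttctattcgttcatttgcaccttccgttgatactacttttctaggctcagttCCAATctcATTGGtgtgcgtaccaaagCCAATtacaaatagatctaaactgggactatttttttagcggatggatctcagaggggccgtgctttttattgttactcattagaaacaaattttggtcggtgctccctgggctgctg
The stretch of COL4A1 and COL4A2 held 1 GC box and 1 CCAAT box, that of COL4A5 held 2 CCAAT boxes and that of COL4A6 held 3. The lines of COL4A5 and COL4A6 overlap, so the inverted pair of CCAAT boxes in both is a single pair read from opposite strands. Among 35116 promoter windows, GGGCGG was in 42.6%, CCAAT in 32.0% and TATAAA in 10.7% of the 250 bases before a start. In the last 126 bases before a start these shares were 34.6%, 21.1% and 5.87%.

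Collagen genes went both ways between the populations, and most of the large changes were falls. Of the 28 tested, 9 were called higher and 10 lower in fast cells, and 9 were not called. The share called was near the background, since 63.4% of all tested genes were called, 31.9% higher and 31.5% lower. Changes of at least 2-fold were mostly falls: 5 collagen genes were at least 2-fold lower (6.92% of all genes), COL4A6, COL4A5, COL20A1, COL8A1 and COL6A3, and 1 was at least 2-fold higher (3.98% of all genes), COL11A1. The median log2 fold change was 0.05 over the collagen genes and 0.01 over all tested genes, and the median of its absolute size was 0.49 against 0.32. A gene enters the test with enough counts in 3 libraries, and 5 of the 28 had them in a single population: COL4A6 and COL20A1 in parental libraries, COL11A1, COL4A3 and COL8A2 in fast ones. Such genes entered the test through the population where they were higher, so the counts above describe the tested genes and support no direction. Among the other 23 genes, 8 were called higher and 8 lower, 3 at least 2-fold lower (COL4A5, COL8A1 and COL6A3) and 0 at least 2-fold higher. Their median log2 fold change was 0.01, and the median of its absolute size was 0.44. The libraries of fast and parental cells did not overlap for 14 of the 28 genes (38.4% of all genes). Within each batch they did not overlap for 18 of the 28, of which 17 were called genes (48.6% of all genes). All 19 called genes had the same sign in both batches, and 8 higher and 10 lower genes were called in each batch on its own (46.0% of all genes).

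**Figure D1:**
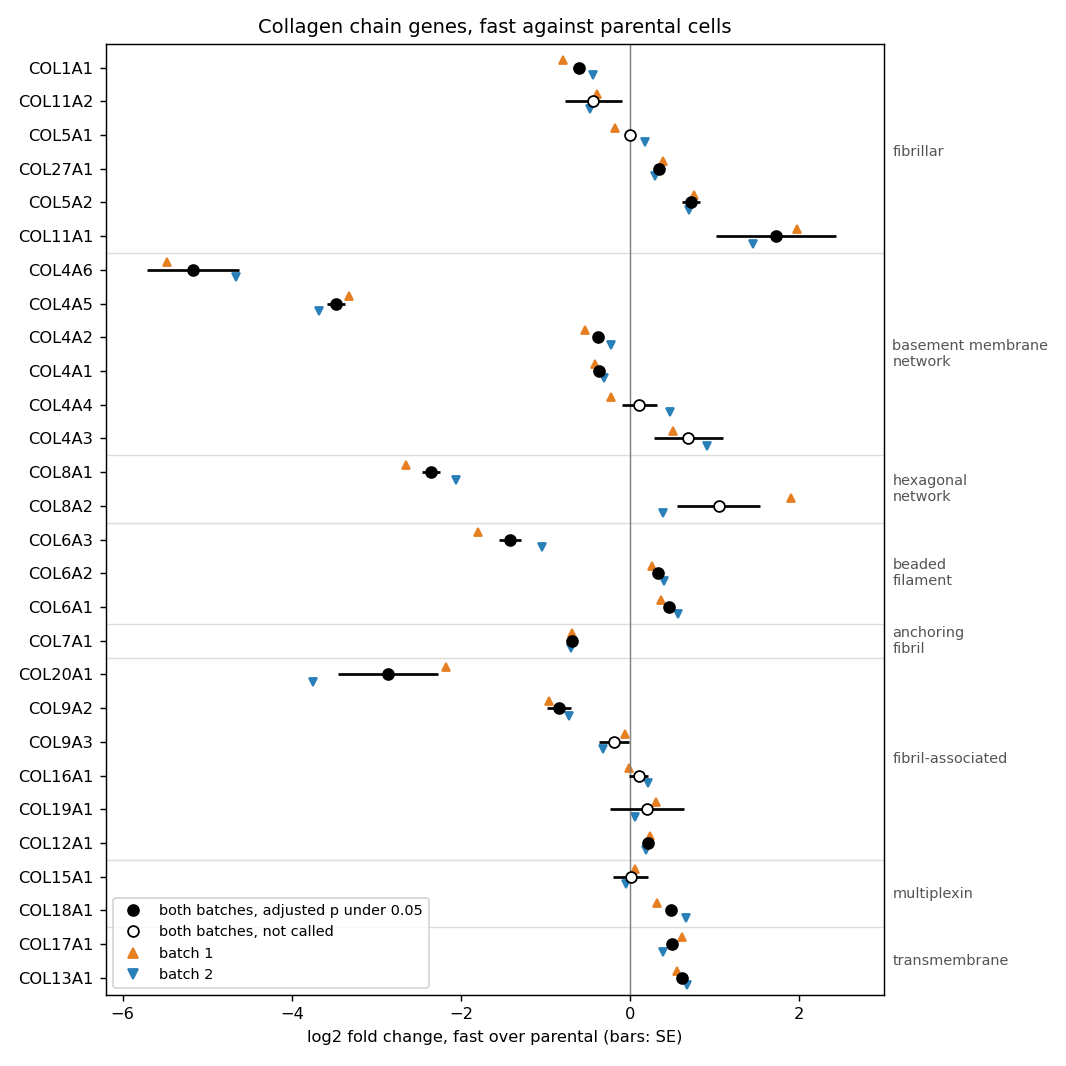
Log2 fold change of the 28 tested collagen genes, fast over parental (circles, with SE bars; filled where the adjusted p was under 0.05), with the change within batch 1 and batch 2 as triangles. Genes are grouped by class. COL4A6, COL4A5, COL20A1, COL8A1 and COL6A3 lie below -1, and COL5A1 lies on opposite sides of 0 in the 2 batches.

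Basement membrane collagen IV was called lower in fast cells for 4 of 6 chains (31.5% of all genes), which fell by very different amounts. COL4A6, among the 4, passed the filter through parental libraries alone. COL4A1 and COL4A2 encode the chains of the network found in nearly all basement membranes. COL4A2 had 171, 182 and 201 CPM in fast cells (lowest, median and highest of 6 libraries), against 219, 238 and 252 CPM in parental cells. COL4A1 had 56.3, 60.8 and 66.6 CPM in fast cells, against 74.6, 77.9 and 81.7 CPM in parental cells. Every fast library lay below every parental library for both genes, and the log2 fold changes were close, at -0.38 ± 0.05 SE for COL4A2 and -0.36 ± 0.03 SE for COL4A1 (edgeR adjusted p = 6.50e-06 and 2.78e-11, n = 6 libraries each). From bulk RNA, fewer cells that express a gene and less RNA per cell cannot be told apart. COL4A2 shares 81 exon bases with its antisense gene COL4A2-AS1, which stood at 6.28 CPM in fast cells against 7.96 CPM in parental ones, and the sources used here do not say whether reads were counted by strand.

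COL4A5 and COL4A6, the X-linked pair, encode chains of the collagen IV networks that are limited to certain basement membranes, such as those of kidney, skin and smooth muscle, and COL4A5 is the main gene of Alport syndrome. COL4A5 had 0.373, 0.575 and 1.04 CPM in fast cells, against 4.79, 6.88 and 8.81 CPM in parental cells, with 243 counts in the 6 fast libraries and 2650 in the 6 parental ones. The highest fast library lay far below the lowest parental one, and the level was 11.1-fold lower in fast cells (log2 fold change -3.48 ± 0.11 SE, edgeR adjusted p = 5.12e-24). COL4A6 was near the limit of detection in fast cells, with 5 counts in all, from 2 of 6 libraries, against 206 counts in parental cells, where each library had at least 13. The ratio of parental over fast was 42.0, with a 95% Poisson interval of 17.7 to 131. Of the 5 fast counts, 3 came from fast batch 1 replicate 1, and without that library the ratio was 87.7 (24.0 to 729). That was the highest ratio with a library left out, and the lowest was 34.0 (14.3 to 106), without fast batch 2 replicate 1. Since parental libraries alone brought COL4A6 past the filter, these values are a description. COL4A3 and COL4A4, partner chains of COL4A5 in kidney, were weakly expressed and not called. COL4A4 stood at 0.772 CPM in fast cells against 0.741 CPM in parental ones (edgeR adjusted p = 0.677), and COL4A3 had 83 counts against 52 (0.141). COL4A3 shares 120 exon bases with the antisense gene AC097662.1, at 0.787 CPM in fast cells against 0.860 CPM in parental ones. Some of its few reads may thus belong to that gene.

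Collagen VIII is a short-chain collagen that forms hexagonal lattices, as in the membrane under the corneal endothelium and in vessel walls. Its chain COL8A1 had the largest absolute loss in CPM among the collagens. COL8A1 had 29.6, 39.6 and 45.5 CPM in fast cells, against 184, 195 and 207 CPM in parental cells. The populations were far apart, with a level 5.09-fold lower in fast cells (log2 fold change -2.35 ± 0.11 SE, edgeR adjusted p = 1.10e-08). With the 3 libraries of a population and batch added up, which leaves 4 samples, the call was lost (edgeR adjusted p = 0.0854). COL8A2, the other chain, was barely detected, with 73 counts in fast and 35 in parental cells, and was not called (edgeR adjusted p = 0.0621). It was called without fast batch 2 replicate 1, without fast batch 2 replicate 2 or without parental batch 2 replicate 3 (0.0364 to 0.0435).

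Collagen VI, which builds beaded microfibrils around cells from COL6A1, COL6A2 and COL6A3, split by chain. COL6A3, the longest of these chains, had 32.6, 35.3 and 40.1 CPM in fast cells, against 76.6, 97.3 and 119 CPM in parental cells, 2.67-fold lower (log2 fold change -1.41 ± 0.13 SE, edgeR adjusted p = 4.07e-06). All fast libraries lay below all parental ones, and on the sums over libraries the call was lost (edgeR adjusted p = 0.189). COL6A1 and COL6A2 are neighbours on chromosome 21 and were higher in fast cells. COL6A1 had 144, 181 and 217 CPM in fast cells, against 95.5, 131 and 172 CPM in the parental libraries (log2 fold change 0.46 ± 0.03 SE, edgeR adjusted p = 2.29e-14). COL6A2 had 93.8, 116 and 137 CPM in fast cells, against 70.3, 93.1 and 117 CPM in the parental libraries (log2 fold change 0.33 ± 0.03 SE, edgeR adjusted p = 7.20e-12). Both genes stood higher in batch 1 than in batch 2, so that the populations overlapped over the 12 libraries but not within a batch. Without the batch term neither was called (edgeR adjusted p = 0.0799 for COL6A1 and 0.159 for COL6A2). COL6A5 and COL6A6, which can take the place of COL6A3 in the trimer, had 0 and 5 counts in fast cells, against 4 and 20 in parental cells, and were not tested.

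**Figure D2:**
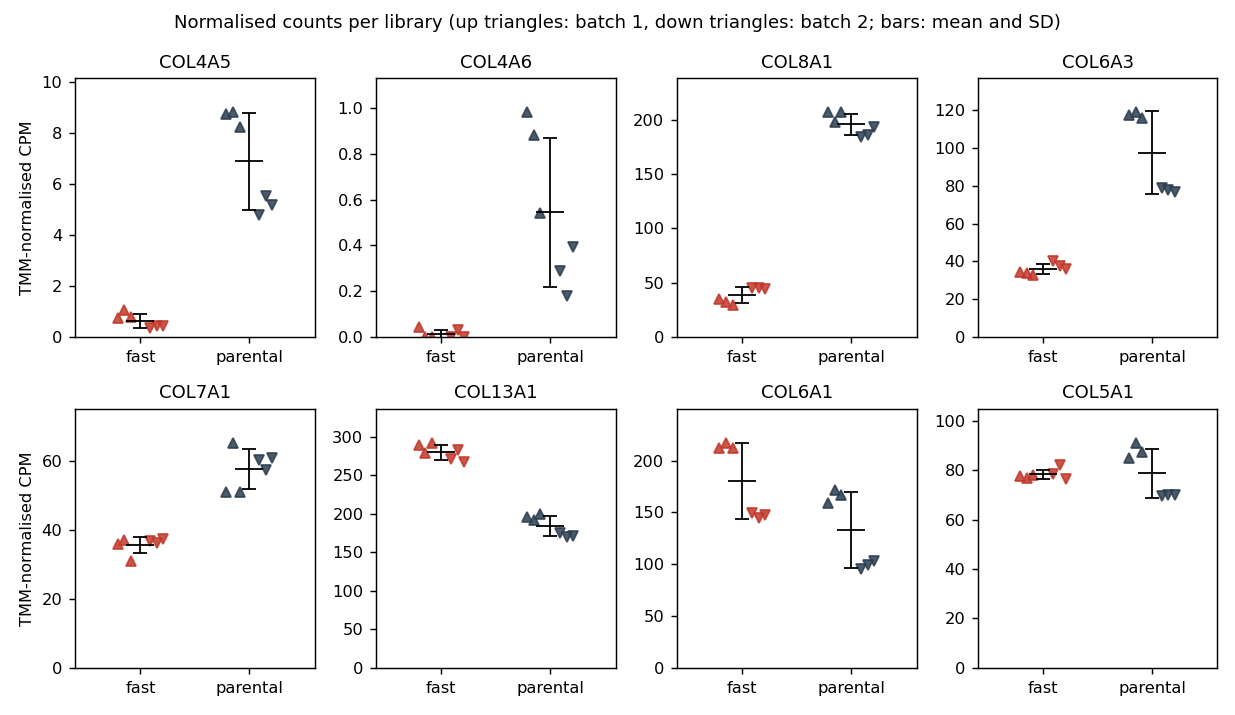
TMM-normalised CPM of 8 collagen genes in each of the 12 libraries, fast left of parental, with batch 1 and batch 2 as triangles pointing up and down, and the mean and SD over 6 libraries. COL4A5, COL4A6, COL8A1, COL6A3 and COL7A1 lie lower in every fast library and COL13A1 higher, COL6A1 separates only within a batch, and COL5A1 overlaps.

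Because the chains of a collagen molecule assemble in fixed proportions, ratios between chains of a type were described per kilobase of exon. No test was run, since these pairs were picked after their values were seen. COL6A3 per COL6A1 was 0.0419 to 0.0731 in fast libraries and 0.188 to 0.224 in parental libraries, lower in fast cells in batch 1 (mean 0.0430 against 0.193) and in batch 2 (0.0701 against 0.213). COL6A2 per COL6A1 moved little, with 0.613 to 0.657 in fast and 0.648 to 0.745 in parental libraries, which overlapped over the 12 libraries but not within a batch. COL4A2 per COL4A1 was 2.19 to 2.33 in fast and 2.11 to 2.51 in parental libraries, lower in fast cells in batch 1 (mean 2.27 against 2.46) and higher in batch 2 (2.31 against 2.18). COL4A5 per COL4A1 was 0.00758 to 0.0227 in fast and 0.0765 to 0.140 in parental libraries. COL4A5 and COL4A1 belong to different collagen IV networks, so no fixed proportion is assumed for that pair. Of these 4 ratios, the 2 between adjoining genes overlapped over the 12 libraries, and the 2 between genes on different chromosomes did not.

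**Figure D3:**
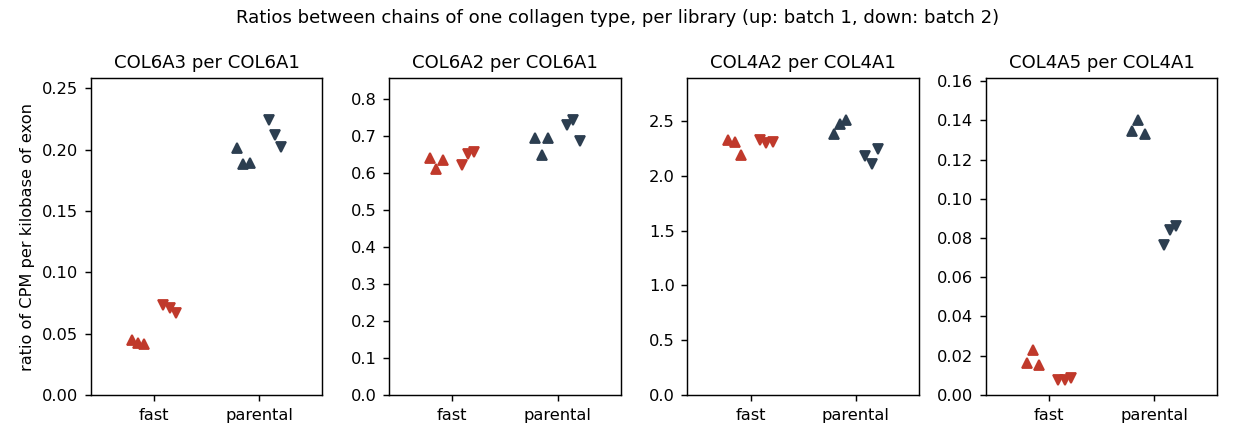
Ratio of CPM per kilobase of exon between chains, in each of the 12 libraries, fast left of parental, with batch 1 and batch 2 as triangles pointing up and down. COL6A3 per COL6A1 and COL4A5 per COL4A1 were lower in every fast library than in any parental one, and COL6A2 per COL6A1 and COL4A2 per COL4A1 overlapped over the 12 libraries.

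Among collagens of epithelial attachment, the anchoring fibril chain was lower and both tested membrane-spanning chains were higher in fast cells. COL7A1, the only chain of the anchoring fibrils that tie epithelium to stroma, had 31.0, 36.5 and 37.4 CPM in fast cells, against 51.1, 58.9 and 65.2 CPM in the parental libraries (log2 fold change -0.69 ± 0.06 SE, edgeR adjusted p = 4.04e-09). The populations did not overlap. COL13A1, a transmembrane collagen of cell adhesion sites and the neuromuscular junction, had 268, 281 and 292 CPM in fast cells, against 170.2, 184 and 200 CPM in parental cells. No library of COL13A1 overlapped, and the log2 fold change of 0.61 ± 0.03 SE had the smallest adjusted p of the higher collagens (edgeR adjusted p = 2.61e-20). COL17A1, the hemidesmosome collagen also known as BP180, had 17.0, 21.1 and 23.2 CPM in fast cells, against 13.9, 14.6 and 15.3 CPM in the parental libraries (log2 fold change 0.50 ± 0.05 SE, edgeR adjusted p = 4.32e-10). These populations did not overlap either. Of the other transmembrane collagens, COL23A1 had 14 counts in fast and 2 in parental cells and COL25A1 had 0.

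The fibrillar collagens were low apart from COL5A1 and COL27A1. Of the 6 tested, 3 were called higher and 1 lower (31.9% and 31.5% of all genes). The higher ones include COL11A1, which passed the filter through fast libraries alone. COL1A1, the major chain of the collagen I of bone, tendon and tumour stroma, had 8.04, 9.07 and 10.9 CPM in fast cells, against 13.5, 14.0 and 15.2 CPM in the parental libraries (log2 fold change -0.61 ± 0.06 SE, edgeR adjusted p = 2.82e-10). All fast libraries lay below all parental ones. Its partner chain COL1A2 had 1 count in the fast libraries and 22 in the parental ones, and COL3A1, of the collagen III that accompanies collagen I, had 4 and 0. Both were below the filter.

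COL5A1 and COL5A2 encode chains of collagen V, which starts collagen I fibrils and sets their width. COL5A2 had 3.20, 3.98 and 4.74 CPM in fast cells, against 1.98, 2.35 and 2.80 CPM in parental cells, with no overlap (log2 fold change 0.72 ± 0.11 SE, edgeR adjusted p = 2.64e-07). COL5A1 had 76.3, 77.9 and 82.0 CPM in fast cells, against 69.4, 77.4 and 91.0 CPM in parental cells, which overlapped (log2 fold change 0.00 ± 0.05 SE, edgeR adjusted p = 0.98). COL27A1, a fibrillar collagen of cartilage, had 34.8, 36.4 and 38.6 CPM in fast cells, against 27.6, 28.9 and 29.7 CPM in parental cells, again with no overlap (log2 fold change 0.34 ± 0.04 SE, edgeR adjusted p = 4.44e-10). COL11A1 and COL11A2, chains of the collagen XI of cartilage, were near the detection limit. COL11A1 had 42 counts in fast and 12 in parental cells, a ratio of fast over parental of 3.43 (95% Poisson interval 1.78 to 7.17), and of 5.73 (2.42 to 16.5) without parental batch 1 replicate 2. The gene passed the filter through fast libraries alone, so these values are a description. Its call (edgeR adjusted p = 0.0341) was lost when replicate 1 or 3 of fast batch 1, replicate 1 or 3 of parental batch 1, or replicate 2 or 3 of parental batch 2 was left out (0.0522 to 0.0897), and with no filter (0.0527). Without fast batch 2 replicate 2 it did not pass the filter. COL11A2 had 90 counts in fast and 120 in parental cells and was not called (edgeR adjusted p = 0.268).

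Fibril-associated collagens sit on the surface of fibrils and do not form fibrils themselves. COL12A1, which links fibrils in tendon and stroma, was the abundant one. It had 131, 137 and 147 CPM in fast cells, against 108, 119 and 127 CPM in parental cells, a small difference with no overlap (log2 fold change 0.21 ± 0.03 SE, edgeR adjusted p = 8.10e-07). COL9A2, a cartilage collagen chain, had 1.04, 1.14 and 1.77 CPM in fast cells, against 1.84, 2.24 and 2.93 CPM in the parental libraries, with no overlap (log2 fold change -0.84 ± 0.14 SE, edgeR adjusted p = 3.02e-06). COL20A1 had 10 counts in fast and 77 in parental cells, a ratio of parental over fast of 7.85 (95% Poisson interval 4.04 to 17.0), and its libraries overlapped. It too passed the filter through parental libraries alone, so the ratio is a description. COL9A3, the partner of COL9A2, stood at 0.766 CPM in fast cells against 0.861 CPM in parental ones and was not called (edgeR adjusted p = 0.376). COL16A1 (2.70 against 2.52 CPM) and COL19A1 (0.193 against 0.166 CPM) were not called either (edgeR adjusted p = 0.446 and 0.721). COL9A3 shares 45 exon bases with TCFL5 (62.4 against 67.7 CPM), and COL19A1 shares 70 with LMBRD1 (8.55 against 9.95 CPM). COL16A1 shares 117 with the antisense gene AC114488.2 (1.32 against 1.53 CPM). These partners lie on the opposite strand, so some reads may be assigned to the wrong gene.

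The multiplexins are basement membrane collagens with a heparan sulfate or chondroitin sulfate side chain, and the end of COL18A1 is cut off as the angiogenesis inhibitor endostatin. COL18A1 had 57.1, 67.2 and 77.3 CPM in fast cells, against 36.7, 48.3 and 62.0 CPM in the parental libraries (log2 fold change 0.49 ± 0.05 SE, edgeR adjusted p = 1.24e-09). The populations overlapped over the 12 libraries but not within a batch. COL18A1 shares 1401 exon bases with SLC19A1, a folate carrier gene on the opposite strand that stood at 17.9 CPM in fast cells against 13.0 CPM in the parental libraries (log2 fold change 0.49), so some reads of the pair may be assigned to the wrong gene. COL15A1, the other multiplexin, had 0.851 CPM in fast cells against 0.845 CPM in parental ones and was not called (edgeR adjusted p = 0.978).

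Collagen reads as a whole changed less than their make-up. The collagen genes summed to 1291 ± 61.7 CPM in fast and 1399 ± 145 CPM in parental libraries (SD, n = 6 each), with ranges of 1215 to 1348 and 1261 to 1541 CPM that overlapped. In batch 1 the sums were 1345 to 1348 CPM in fast and 1524 to 1541 CPM in parental libraries, and in batch 2 they were 1215 to 1259 and 1261 to 1278 CPM. COL13A1 took 21.7% of the collagen reads in fast and 13.2% in parental cells, and COL8A1 took 3.02% and 14.1%. The share of COL6A3 was 2.79% in fast and 6.91% in parental cells, while that of COL6A1 was 13.9% and 9.35%. COL4A2 took 14.2% of the reads in fast and 17.0% in parental cells. In each of these genes the range of the fast libraries lay apart from that of the parental ones.

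**Figure D4:**
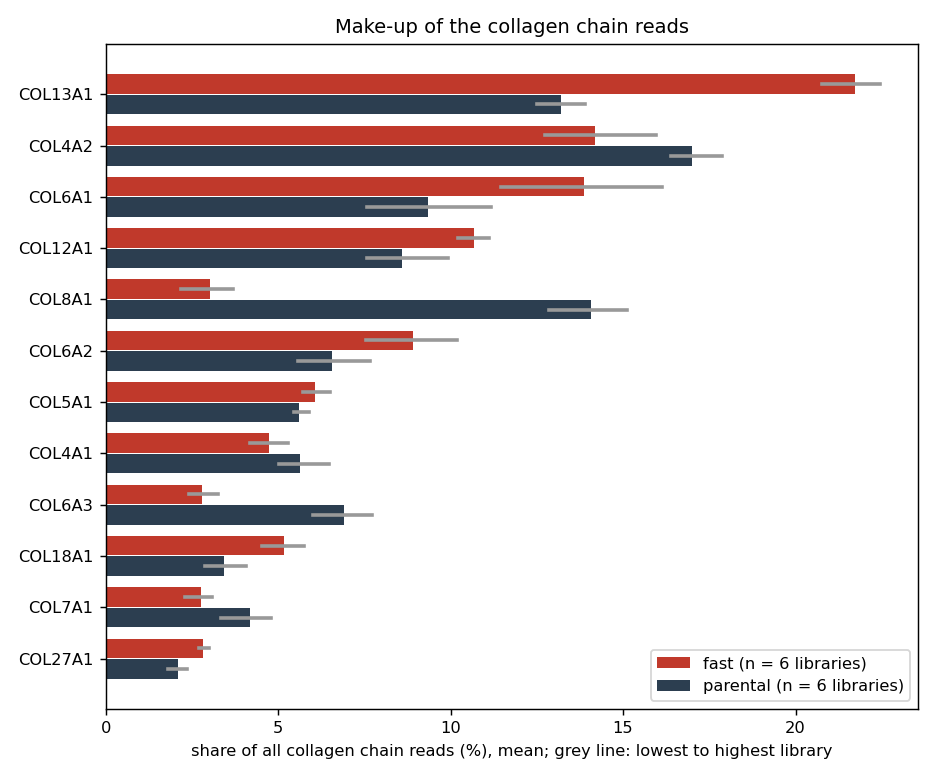
Share of all collagen chain reads taken by the 12 most abundant collagen genes, as the mean of 6 fast libraries (upper bar) and 6 parental libraries (lower bar), with grey lines from the lowest to the highest library. COL13A1 had the largest share in fast cells, at 21.7%, and COL4A2 in parental cells, at 17.0%, while COL8A1 had 3.02% in fast and 14.1% in parental cells.

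Per kilobase of exon, COL13A1 was the highest collagen gene in both populations, at 47.6 CPM per kilobase in fast and 31.3 in parental cells, followed by COL6A1 at 33.7 and 24.8. COL8A1 stood in place 9 of 28 in fast cells, at 4.11 CPM per kilobase, and in place 3 in parental cells, at 20.8. In fast cells COL8A1 lay next to COL4A1, at 4.12 CPM per kilobase, a difference within the spread of either gene. COL4A5 was in place 21 in fast and 15 in parental cells, and COL4A6 in place 28, the lowest of the tested genes, and 22.

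The size of the effect differed between batches for 7 of the 28 collagen genes (5.40% of all genes). Differences are given as batch 2 minus batch 1. COL6A3 fell by 1.80 in batch 1 and by 1.04 in batch 2 on the log2 scale (difference 0.76, edgeR adjusted p = 2.52e-13). In COL6A3 the fast libraries were close, with means of 33.8 CPM in batch 1 and 37.9 CPM in batch 2, and the parental means were 117.5 and 77.7 CPM. COL8A1 fell by 2.65 in batch 1 and by 2.06 in batch 2 (difference 0.59, edgeR adjusted p = 1.68e-10). COL5A1, not called over all libraries, was lower in fast cells in batch 1, at 77.6 against 87.7 CPM, and higher in batch 2, at 78.9 against 69.7 CPM (log2 fold changes -0.18 and 0.18, edgeR adjusted p = 8.13e-05 and 6.11e-05). Its difference between batches was 0.36 (edgeR adjusted p = 7.23e-06). For COL4A2, COL6A1, COL18A1 and COL1A1 the difference was 0.30, 0.20, 0.34 and 0.36, with the direction the same in both batches. The rises of COL6A1 and COL18A1 were larger in batch 2, and the falls of COL4A2 and COL1A1 were smaller there. The call of COL1A1's difference was lost when replicate 1 or 2 of fast batch 1, of parental batch 1 or of parental batch 2 was left out (edgeR adjusted p of 0.0653 to 0.100).

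To show whether the surroundings of a collagen gene moved as it did, each was set beside the median of its 20 nearest genes with a mean of at least 1 CPM. Of the 19 called collagen genes, 15 had the sign of their neighbours' median, or 78.9%, near the 76.9% of all 13815 called genes that could be placed. The genes around COL4A5 and COL4A6 had medians of -0.75 and -0.78 on the log2 scale, far smaller than the falls of the 2 genes themselves, at -3.48 and -5.17. The neighbours of COL8A1 (median -0.21) and COL6A3 (0.12) did not show a fall of that size. For several genes the neighbours' median and the gene's own value were near each other: COL12A1 0.21 and 0.21, COL6A2 0.27 and 0.33, COL18A1 0.39 and 0.49. Only the gene itself was left out of its neighbours. Those of COL6A2 thus include COL6A1, those of COL4A6 include COL4A5, and COL4A1 and COL4A2 are among each other's. Those of COL18A1 include SLC19A1, which shares exon bases with it. COL4A5 and COL4A6 adjoin, so their medians rest largely on the same genes. COL5A1 lay in a region with a median of 0.63 while its own value was 0.00, and COL1A1 went against its neighbours (0.22 against -0.61). Whether the neighbourhood takes part in any of these changes was not tested.

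**Figure D5:**
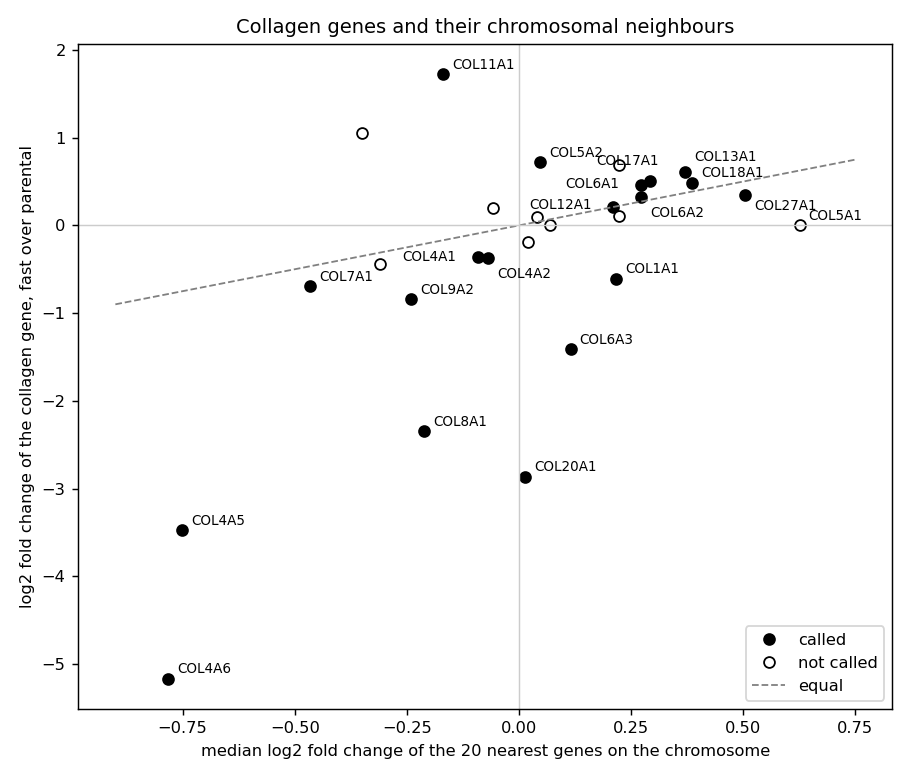
Log2 fold change of each tested collagen gene, fast over parental, against the median of its 20 nearest genes on the chromosome, with called genes filled, called genes and COL5A1 named, and the dashed line where both are equal. COL12A1, COL6A2 and COL18A1 lie near the line, and COL4A5, COL4A6, COL8A1, COL6A3 and COL20A1 lie far below it.

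The enzymes, receptors and proteases that make, bind and cut collagen also went both ways. Of 53 such genes 47 were tested, with 21 higher, 20 lower and 6 not called, against 63.4% called among all tested genes, 31.9% higher and 31.5% lower. The counts by role below are of few genes each and are to be read against those shares. TLL2 and ADAMTS14, both among the lower genes, passed the filter through parental libraries alone. In biosynthesis, 16 of 33 were higher and 13 lower. Among the higher ones, MIA3 (log2 fold change 0.09) lost its call on the sums over libraries (edgeR adjusted p = 0.100). All 3 lysyl hydroxylases, which prepare lysines for cross-links and sugars, were higher, among them PLOD2 at 128 CPM in fast cells against 109 CPM in the parental libraries (log2 fold change 0.23). The prolyl 3-hydroxylase group had 2 higher and 4 lower of 6, and its member P3H3 was at 4.34 CPM in fast cells against 2.18 CPM in parental ones (1.01 ± 0.12 SE, edgeR adjusted p = 2.68e-09). Of its lower genes PPIB changed by -0.07, a call lost in 11 of 21 alternatives: without replicate 1, 2 or 3 of fast batch 1, replicate 1 or 2 of fast batch 2, replicate 3 of parental batch 1 or replicate 1 or 2 of parental batch 2 (edgeR adjusted p of 0.0615 to 0.170), without a batch term (0.119), with the replicate block (0.0669) and on the sums (0.330). SERPINH1, the collagen chaperone HSP47, was lower, at 136 against 187 CPM (-0.46 ± 0.03 SE, edgeR adjusted p = 1.05e-16). P4HB, the shared subunit of prolyl 4-hydroxylase, stood at 633 CPM in fast cells against 639 CPM in parental ones and was not called (edgeR adjusted p = 0.673). The lysyl oxidases, which cross-link collagen outside the cell, had 3 higher and 2 lower of 5. The call of LOX was lost without a batch term (edgeR adjusted p = 0.38) and that of LOXL2 on the sums (0.0802).

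Of 8 tested collagen receptor genes, 4 were higher and 3 lower (background 31.9% and 31.5%). DDR2, a discoidin domain receptor and 1 of the lower genes, stood at 2.23 CPM in fast cells against 2.83 CPM in parental ones (log2 fold change -0.35, edgeR adjusted p = 0.0416). Its change was 0.10 in batch 1 and -0.79 in batch 2 (edgeR adjusted p of the difference 0.0121). The call was lost in 10 of 21 alternatives: without replicate 1, 2 or 3 of fast batch 2, replicate 2 of parental batch 1 or replicate 1, 2 or 3 of parental batch 2 (edgeR adjusted p of 0.0550 to 0.123), without a batch term (0.0867), with the replicate block (0.0837) and on the sums (0.151). Without a batch term ITGA1 and ITGA10 were not called either (edgeR adjusted p = 0.0832 for both). ITGA2, the integrin chain that binds collagen together with ITGB1, was at 225 CPM in fast cells against 102 CPM in the parental libraries (log2 fold change 1.12 ± 0.03 SE, edgeR adjusted p = 3.58e-25). ITGB1 was at 1125 CPM in fast cells against 1283 CPM in parental ones (-0.19 ± 0.02 SE, edgeR adjusted p = 5.88e-09). Of 6 collagen-degrading proteases tested, 1 was higher and 4 were lower (background 31.9% and 31.5%). The higher one, MMP14, lost its call without a batch term (edgeR adjusted p = 0.106). MMP1, the interstitial collagenase, was at 24.3 CPM in fast cells against 100.2 CPM in parental ones (-2.38 ± 0.35 SE, edgeR adjusted p = 1.73e-04), a call lost on the sums over libraries (0.303). Its fall was smaller in batch 1 (-1.48) than in batch 2 (-3.60). MMP2, a gelatinase that also cuts collagen IV, was at 0.390 CPM in fast cells against 1.05 CPM in parental ones (-1.54 ± 0.24 SE, edgeR adjusted p = 1.06e-06).

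The 16 collagen genes below the filter add little to these sums. COL5A3, COL9A1, COL14A1, COL22A1 and COL25A1 were at 0 in all 12 libraries, which allows up to 3 counts over the 12 libraries. The other 11 had 2 to 62 counts in total, most in COL10A1, the collagen of hypertrophic cartilage, with 38 counts in fast and 24 in parental cells. COL6A6, COL21A1, COL24A1, COL2A1, COL28A1, COL26A1, COL23A1, COL1A2, COL3A1 and COL6A5 had 25 or fewer.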

How the data were processed

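RNA of 12 libraries of MDA-MB-231 cells, 6 fast and 6 parental in 2 batches, was analysed from a deposited table of raw read counts per gene, which the authors had not normalized. Per the submitters' processing notes, Trimmomatic 0.32, STAR 2.3.0e and featureCounts 1.4.4 were used, with the builds hg19 and GRCh37. Strand use and the treatment of reads with several matches are not given in the sources used here, so reads of overlapping genes cannot be assigned with certainty. All 12 columns were matched to samples by the labels.

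All genes of the count table entered edgeR 4.0.16 (R 4.3.3), with TMM normalisation, a low-count filter set by population and batch (minimum count 10, minimum total 15) and robust quasi-likelihood tests of population with batch as a term. Effects inside a batch, and how they differ between batches, came from a fit of 4 group means. P-values were adjusted over 22668 genes by Benjamini and Hochberg's method at a threshold of 0.05. The steps were tested on simulated counts. Poisson intervals (95%) and floors hold for counting error alone, as PCR copies carried no molecular mark. They also take each count as independent. The counts of COL11A1, COL21A1, COL23A1 and COL24A1 were even in every library, so the intervals may be too narrow. The few counts of COL3A1, COL6A5 and COL26A1 were even as well. The cause of the even counts was not tested.

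The members, gene lists and pairs were chosen with earlier results of these data known. Named were all tested collagen genes, with library values for called ones at 0.5 CPM or more or at least 4-fold changed, called pathway genes at least 2-fold changed at 1 CPM or more, and ITGB1, P4HB, SERPINH1 and PLOD2. Chromosome, gene order and exon length came from GENCODE by gene ID, of another build, so no coordinates are taken from it. Of 69 list and marker genes, 68 were matched by ID and 1 by symbol. Alternatives were DESeq2 1.42.0 and its size factors, limma-voom (limma 3.58.1), other filters, no batch term, a replicate block, sums of 3 libraries, no robust option and leaving out each library. Counts of any pair of libraries from the same population and batch varied beyond counting noise, with an index of dispersion of 3.32 to 8.36.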

Additional observations from a re-analysis of the deposited data

Results flagged for a closer look

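In 7 collagen genes the effect, fast over parental, differed between the batches by a test of that difference. On the log2 scale, batch 2 minus batch 1 was 0.76 for COL6A3, 0.59 for COL8A1, 0.36 for COL1A1, 0.36 for COL5A1, 0.34 for COL18A1, 0.30 for COL4A2 and 0.20 for COL6A1. In COL5A1 the effect had opposite signs, lower in fast cells in batch 1 and higher in batch 2.

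In COL7A1, fast batch 1 replicate 3 stood at 31.0 CPM, apart from the other fast libraries, which ran from 35.9 to 37.4 CPM. It was the only such library in 56 sets of 6 libraries, and chance gives about 1 in 20. Every fast library of COL7A1, this one included, lay below the parental libraries.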

How the results depend on the processing

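No count of calls moved by over 1.5 times. Over the alternatives the collagen genes called were 6 to 10 higher and 8 to 11 lower, those with a difference between batches 6 to 9, and the other pathway genes 18 to 21 higher and 16 to 21 lower. The 6 higher were without a batch term, where COL6A1, COL6A2 and COL11A1 lost their calls.

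Values of genes that were not called changed sign around 0. COL5A1 was -0.0068 with DESeq2 size factors, -0.0068 with DESeq2, -0.0029 without a filter, -0.021 with a filter at 1 CPM and -0.0072 without a batch term, and -0.028 to 0.043 with a library left out. COL15A1 was -0.0016 with DESeq2 size factors and -0.0035 with DESeq2, and -0.11 to 0.13 with a library left out. With a library left out COL4A4 was -0.0070 to 0.29, COL19A1 -0.11 to 0.44 and P4HB -0.022 to 0.0063. The cause was not tested.

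On sums of the 3 libraries, COL8A1, COL6A3, MMP1, PPIB, LOXL2, DDR2 and MIA3 kept their direction and lost their call with fewer samples. The labels' replicate numbers do not pair the samples: same-numbered libraries had correlations of -0.104 to 0.0954, and 4 of 12 matched their own number best. With the replicate block 8 collagen genes were higher and 10 lower, 6 differed between batches, and 21 other pathway genes were higher and 18 lower. COL11A1 (adjusted p = 0.0521, and 0.0527 without a filter) and the batch difference of COL1A1 (0.0519) lost their call. Depth limits COL4A6, COL20A1, COL11A1, COL4A3 and COL8A2, which had 5 to 206 counts per population.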
